A study of Homo sapiens with 9 samples.

Results

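The data described here are the messenger RNA levels of 34 genes of the integrated stress response and of amino acid supply in K562 cells depleted of DHX34 or UPF1. The members were listed by name, as genes of the ATF4 pathway and of amino acid synthesis and transport, and the list was drawn up with earlier results of these data known. All 34 were found among the 58214 genes that had at least 1 matched transcript, and 30421 of those genes had a count in at least 1 library. All 34 also passed the filter on low counts in every comparison. They fall into 8 transcription factors of the response, 7 feedback and stress effectors, 11 enzymes of amino acid synthesis and one-carbon metabolism, and 8 transporters and tRNA export genes.

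The integrated stress response is set off when kinases that sense amino acid shortage, unfolded protein, double-stranded RNA or lack of heme phosphorylate the translation initiation factor eIF2. General translation then slows, while the mRNA of the transcription factor ATF4, which carries upstream open reading frames, is translated more. ATF4 pairs with C/EBP proteins and binds composite elements near genes for amino acid synthesis, amino acid uptake and aminoacyl-tRNA supply, and it induces its own feedback regulators. Nonsense-mediated decay (NMD) removes mRNAs on which translation stops too early, and it also lowers a set of normal mRNAs, and ATF4 mRNA has been described among its substrates. UPF1 is the core RNA helicase of NMD, and DHX34 is a DEAH-box helicase that acts in the same pathway.

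K562 is an established human myelogenous leukemia line with erythroid features. The cells were transfected with a pool of nontargeting siRNAs (SCR), with a pool against DHX34 or with siRNA against UPF1, and were harvested 4 days later, giving 3 libraries in each of the 3 groups from poly(A)-selected RNA. All 9 libraries therefore share the line, the transfection scheme and the single time point. The labels call the 3 libraries of a group replicates by number only, and the methods call them biological replicates. Each library held between 73478797 and 103625443 expected counts. The labels spell the line both K562 and K652 and give SCR the treatment WT. DHX34 mRNA was 73.7 ± 1.11 CPM (counts scaled to a common library size; SD, n = 3) in SCR and 31.4 ± 2.32 in DHX34 knockdown, and UPF1 mRNA was 262 ± 8.13 in SCR and 106 ± 1.47 in UPF1 knockdown, so each targeted gene was reduced (log2 fold change -1.23 ± 0.05 and -1.31 ± 0.03, SE) but still expressed. The 6 erythroid and K562 markers were detected in every library, with summed levels of 6304 to 6810.3 CPM in SCR, 5382 to 5954 in DHX34 knockdown and 4287 to 4573 in UPF1 knockdown. Replicate 3 of DHX34 knockdown stood apart from the other libraries of its group, with a chi-square of counts per degree of freedom of 20.2 and 22.4 against them, where all other pairs within a group gave 5.71 to 9.6. For DHX34 knockdown the number of members called, the counts of the further lists and the isoform shares are also given without it.

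In the SCR control the 34 genes covered a wide range of levels, compared here in TPM, a unit of transcript abundance that accounts for length and depth. ATF4 (299.5 ± 5.38 TPM, SD, n = 3) and the glutamine carrier gene SLC1A5 (295 ± 5.29) headed the order and did not differ beyond their spread. SHMT2 (239 ± 7.58) and ASNS (225 ± 0.495) followed. At the other end JDP2 (2.67 ± 0.487) and ALDH1L2 (1.34 ± 0.195) were low, and NUPR1 (0.0938 ± 0.0372) and VLDLR (0.0251 ± 0.000945) were close to absent, so that their fold changes below carry wide errors.

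UPF1 knockdown raised most of the 34 genes. In UPF1 knockdown against SCR, 23 members were higher and none was lower at an adjusted p of at most 0.005, the limit the study used for its own calls, with p values from edgeR adjusted over all 17184 genes tested. Across all genes tested 12.4% were called higher and 12.9% lower. The median log2 fold change of the members was 0.32, against 0.02 for all genes, and single members ran from -0.07 to 1.27. In 30 of the 34 members every UPF1 knockdown library lay above every SCR library, which held for 26.6% of all genes. The 23 kept a positive log2 fold change under all 16 alternative analyses. These include the looser adjusted p limit of 0.05, which reuses the same fold changes and so could not change a sign. Of the 23, 21 were called in each of the 6 fits that left out 1 library, while SLC38A2 was called in 2 and XPOT in 1.

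In DHX34 knockdown most of the members that changed were lower. In DHX34 knockdown against SCR, 12 members were lower and 1, JDP2, was higher, where 4.86% of the 17004 genes tested were called lower and 5.54% higher. The 12 were ATF4, DDIT3, CEBPG, TRIB3, CHAC1, DDIT4, ASNS, PSAT1, PHGDH, MTHFD2, SLC7A5 and SLC3A2. The median log2 fold change of the members was -0.16, against 0.02 for all genes, with 27 negative and 7 positive values. Every DHX34 knockdown library lay below every SCR library in 22 members, which held for 20.3% of all genes, and above in 2, which held for 21.1%. The 12 kept a negative sign under all 16 alternatives, of which the adjusted p limit of 0.05 again could not change a sign. The number of calls, in contrast, depended on the libraries and the scale. Without SCR replicate 1 it was 5, without SCR replicate 3 it was 6, without DHX34 knockdown replicate 1 it was 8, and without the outlying DHX34 knockdown replicate 3 it was 12. On a log2 TPM scale, where the median of all genes was itself 0.13, the members' median was 0.00, 3 were called, 1 higher and 2 lower, and 10 of the 34 members changed sign. That scale called 879 of all genes. Only ASNS, CEBPG, DDIT4, PHGDH and SLC7A5 were called in all 6 fits that left out 1 library. The RNA came from whole cultures, in which fewer cells expressing a gene and less of its RNA per cell cannot be told apart.

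Both comparisons share the SCR libraries, so the difference between the knockdowns was taken from UPF1 knockdown directly against DHX34 knockdown. All 34 members had a positive log2 fold change there, 27 were called higher and none lower, where 9.89% of 17435 genes were called higher and 7.47% lower. The median was 0.61 for the members and 0.01 for all genes, with a range of 0.07 to 1.51. The libraries did not overlap, with UPF1 knockdown higher, in 31 members and in 23.2% of all genes. The 7 members without a call were CEBPB, JDP2, NUPR1, VLDLR, CBS, SLC1A5 and SLC38A2. Of the 27, 25 were called in all 6 fits that left out 1 library. PPP1R15A, called in 1 of those fits, and XPOT, called in 2, were the exceptions. Without DHX34 knockdown replicate 3 the count was 28, in a fit that called 3865 of all genes, where 3026 were called with all libraries.

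**Figure D1:**
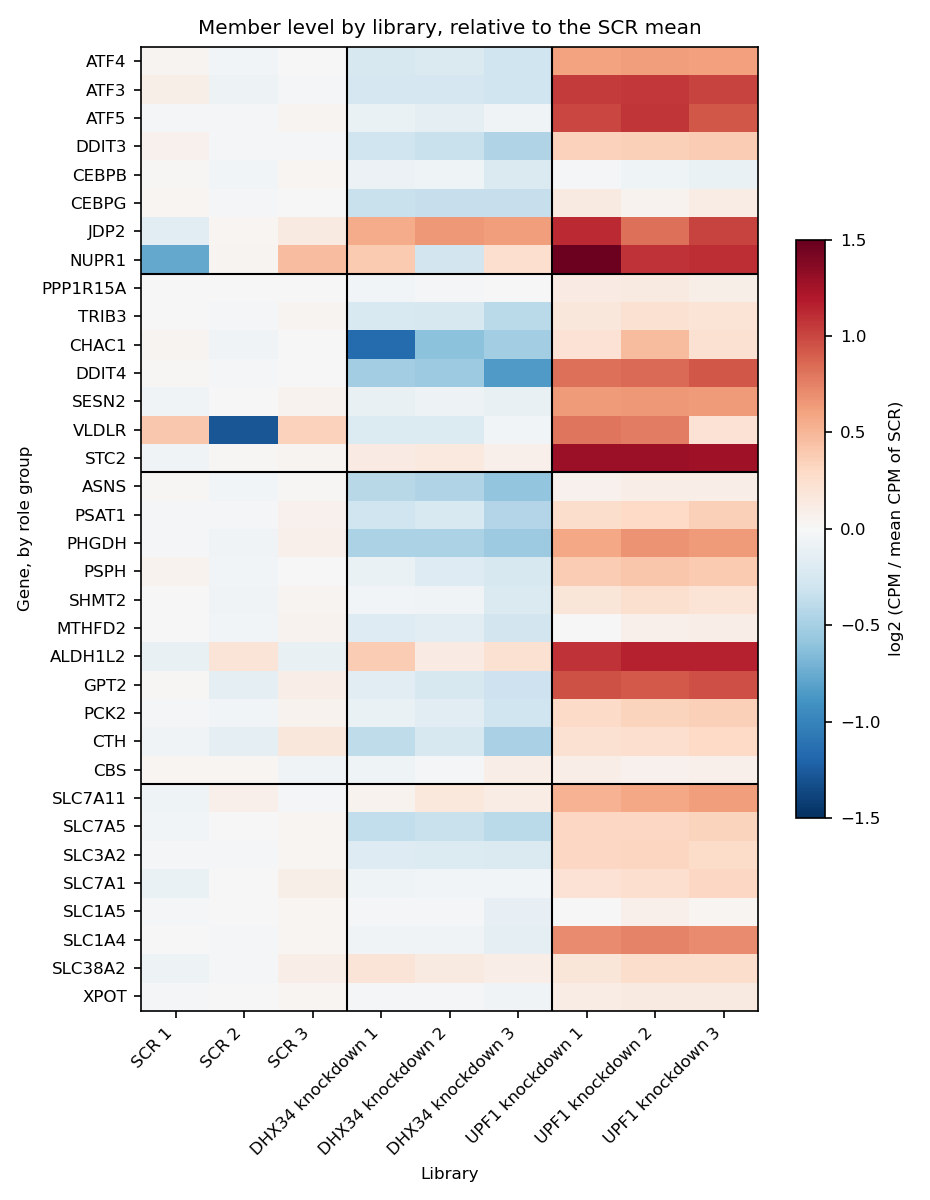
Level of each member in each of the 9 libraries (columns, by siRNA and replicate), as log2 of its CPM over the mean CPM of the 3 SCR libraries, with rows grouped by role and the color scale running from -1.5 to 1.5. Red fills most rows of the 3 UPF1 knockdown columns, where 30 members lay above SCR without overlap, and pale blue most rows of the DHX34 knockdown columns, where 22 lay below it.

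**Figure D2:**
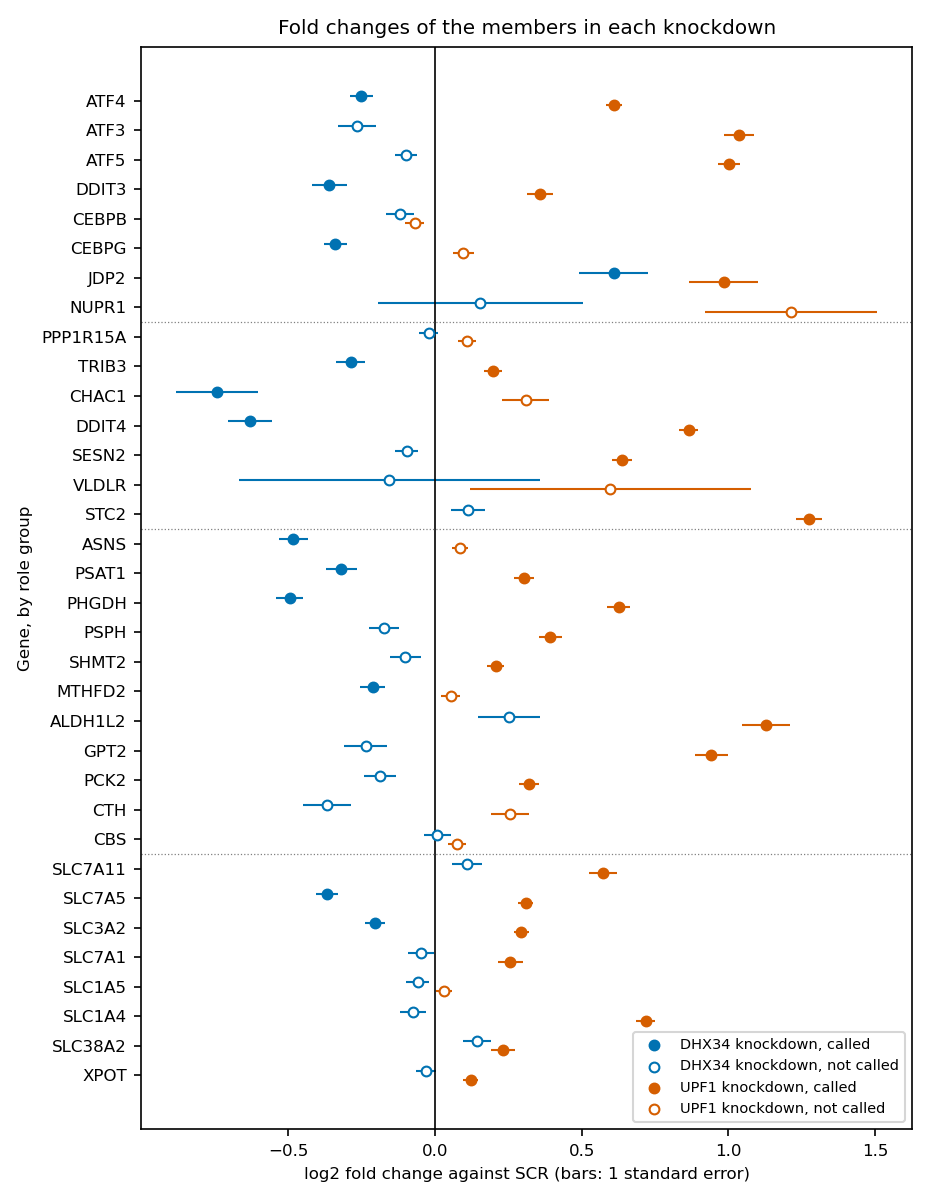
Log2 fold change against SCR for each member (rows, by role) in DHX34 knockdown and in UPF1 knockdown, with bars of 1 standard error; filled points passed an adjusted p of 0.005. The 23 filled UPF1 points all lie above 0, and of the 13 filled DHX34 points all but JDP2 lie below it.

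RefSeq start windows of the members were read for the composite element that ATF4 and its C/EBP partners bind, since the list is defined by that factor. Windows (GRCh38.p14) of 250 bases before to 50 after an annotated start were matched for 28 members, 47 windows in all since 13 members have more than 1 start, and none was printed for SHMT2, GPT2, NUPR1, PSPH, ALDH1L2 and SLC7A11. The core TGATGNAA, searched on both strands, was present in at least 1 window of 9 of the 28 members and of 4.46% of the 27305 genes with windows of this length. Those genes had 35116 windows, so the members had more windows per gene in which a match could fall. A window of 30 bases around the match is shown for those 9 genes, with the match in capitals and written on the strand of the gene.
ATF3: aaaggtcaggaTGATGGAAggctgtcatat
SLC1A4: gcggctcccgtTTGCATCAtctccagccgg
ASNS: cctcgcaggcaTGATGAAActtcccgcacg
SLC3A2: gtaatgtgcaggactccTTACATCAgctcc
SLC7A1: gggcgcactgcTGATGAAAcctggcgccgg
JDP2: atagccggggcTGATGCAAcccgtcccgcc
CHAC1: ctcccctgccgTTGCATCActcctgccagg
CEBPG: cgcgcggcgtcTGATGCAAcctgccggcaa
SLC1A5: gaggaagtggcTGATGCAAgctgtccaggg
The capitals of ATF3, ASNS, SLC7A1, JDP2, CEBPG and SLC1A5 read the core itself, and those of SLC1A4, SLC3A2 and CHAC1 read its reverse complement. The windows lie at chr1:212565205-212565234 (ATF3, plus strand), chr2:64989381-64989410 (SLC1A4, plus strand), chr7:97872458-97872487 (ASNS, minus strand), chr11:62881719-62881748 (SLC3A2, plus strand), chr13:29595663-29595692 (SLC7A1, minus strand), chr14:75427995-75428024 (JDP2, plus strand), chr15:40953251-40953280 (CHAC1, plus strand), chr19:33374060-33374089 (CEBPG, plus strand) and chr19:46784893-46784922 (SLC1A5, minus strand). Those of SLC3A2 and SLC7A1 match after the annotated start of their window, at 37 and 7 bases, and the other 7 match before it, from 7 bases (SLC1A4) to 209 bases (CHAC1). In ASNS, CHAC1, SLC1A4 and SLC7A1 that start is the start of the isoform that led in SCR. In the other 5 members the window belongs to another start, 404 bases away from that of the leading isoform in CEBPG, 803 in SLC3A2, 3780 in SLC1A5, 4112 in JDP2 and 43354 in ATF3. Of the 25 members with a window within 50 bases of the leading isoform's start, 4 held the core there. The share of all genes under this rule was not computed. The cAMP response element TGACGTCA was found in 1 member, PPP1R15A, and in 2.25% of all genes with windows, and the ER stress element in none of the members and in 0.0916% of those genes. A match in such a window is a string of letters and was not tested for binding.

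Of the 8 transcription factors, 5 rose in UPF1 knockdown (ATF4, ATF3, ATF5, DDIT3 and JDP2) and none fell, while in DHX34 knockdown ATF4, DDIT3 and CEBPG fell and JDP2 rose. ATF4 (ENSG00000128272, chr22:39519695-39522683), the central activator of the response (coordinates here and below are GRCh38, GENCODE release 44), stood at 385, 363 and 370.2 CPM in SCR, 315, 319.6 and 304 in DHX34 knockdown and 567, 575 and 571 in UPF1 knockdown. The 3 groups did not overlap, with UPF1 knockdown highest and DHX34 knockdown lowest. Its log2 fold change was 0.61 ± 0.03 (SE) in UPF1 knockdown, with an adjusted p of 2.2e-08, and -0.25 ± 0.04 in DHX34 knockdown, with an adjusted p of 0.00108. The DHX34 call passed the limit in 4 of the 6 fits that left out 1 library, and gave an adjusted p of 0.00549 without SCR replicate 1 and of 0.00601 without DHX34 knockdown replicate 1. Directly compared, ATF4 was 1.84-fold higher in UPF1 than in DHX34 knockdown (log2 fold change 0.88 ± 0.03, adjusted p = 1.68e-08).

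ATF3 (ENSG00000162772, chr1:212565334-212620777), a bZIP factor induced downstream of ATF4, stood at 17.7, 15.7 and 16.4 CPM in SCR, 13.98, 13.9 and 13.5 in DHX34 knockdown and 34.2, 34.7 and 33.6 in UPF1 knockdown. UPF1 knockdown raised it 2.05-fold over SCR (log2 fold change 1.04 ± 0.05, adjusted p = 4.53e-08), without overlap. In DHX34 knockdown all 3 libraries lay below SCR, with a log2 fold change of -0.26 ± 0.07 that missed the limit (adjusted p = 0.0127). ATF5 (ENSG00000169136, chr19:49928702-49933935), a relative of ATF4 whose mRNA also carries upstream open reading frames, stood at 86.4, 86.8 and 89.9 CPM in SCR, 81.5, 79.2 and 84.8 in DHX34 knockdown and 176, 185 and 168 in UPF1 knockdown. It was 2.00-fold higher in UPF1 knockdown than in SCR (log2 fold change 1.00 ± 0.04, adjusted p = 3.78e-09), and its DHX34 value was -0.10 ± 0.04 (adjusted p = 0.0774), a sign that turned on the log2 TPM scale. Exons of NUP62 overlap ATF5 on the opposite strand, and NUP62 was at 219.7 CPM in SCR and 207 in UPF1 knockdown.

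JDP2 (ENSG00000140044, chr14:75427716-75474111), a repressor of the AP-1 family, was the member called higher in both knockdowns. Its low level was 2.76, 3.18 and 3.41 CPM in SCR, 4.60, 4.88 and 4.81 in DHX34 knockdown and 6.75, 5.54 and 6.31 in UPF1 knockdown, so that SCR was lowest, UPF1 knockdown highest, and no groups overlapped. The log2 fold change was 0.98 ± 0.12 in UPF1 knockdown (adjusted p = 3.74e-05) and 0.61 ± 0.12 in DHX34 knockdown (adjusted p = 0.00342). The DHX34 call was lost in each of the 6 fits that left out 1 library, with adjusted p values of up to 0.0180, although the sign stayed positive. The direct difference between the knockdowns, 0.39 ± 0.10, missed the limit (adjusted p = 0.0109).

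DDIT3, which encodes the stress factor CHOP, averaged 26.3 CPM in SCR, 20.4 in DHX34 knockdown and 33.7 in UPF1 knockdown. It rose in UPF1 knockdown (log2 fold change 0.36 ± 0.04, adjusted p = 4.87e-05) and fell in DHX34 knockdown (log2 fold change -0.36 ± 0.06, adjusted p = 0.00158), the latter with an adjusted p of 0.00810 without SCR replicate 1 and 0.00595 without SCR replicate 3. Exons of MARS1 and MBD6 overlap DDIT3 on the opposite strand, and MARS1 was at 405.1 CPM in SCR, 372 in DHX34 knockdown and 439 in UPF1 knockdown. Whether the counting used the strand is not given in the sources used here, so reads of the overlapping stretch cannot be told apart. CEBPG, a C/EBP partner of ATF4, fell in DHX34 knockdown (log2 fold change -0.34 ± 0.04, adjusted p = 0.000155) and had a log2 fold change of 0.10 ± 0.04 in UPF1 knockdown that missed the limit (adjusted p = 0.0494). CEBPB, another C/EBP protein, was the single member with a negative value in UPF1 knockdown, at -0.07 ± 0.03 (adjusted p = 0.124), and that sign turned on the log2 TPM scale. NUPR1, a small stress-induced chromatin protein, was barely expressed, at 0.2999, 0.527 and 0.707 CPM in SCR, 0.674, 0.423 and 0.609 in DHX34 knockdown and 1.42, 1.09 and 1.10 in UPF1 knockdown, and its UPF1 value of 1.21 ± 0.29 just missed the limit (adjusted p = 0.00561).

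Of the 7 effectors, TRIB3, DDIT4, SESN2 and STC2 rose in UPF1 knockdown and TRIB3, CHAC1 and DDIT4 fell in DHX34 knockdown. DDIT4 (ENSG00000168209, chr10:72273919-72276036), which encodes the mTORC1 inhibitor REDD1, stood at 278, 268 and 275 CPM in SCR, 191, 187 and 152 in DHX34 knockdown and 487, 492 and 521 in UPF1 knockdown. The groups were far apart, and DHX34 knockdown replicate 3 was the lowest library of all. DDIT4 was 1.82-fold its SCR level in UPF1 knockdown (log2 fold change 0.86 ± 0.03, adjusted p = 2.96e-09) and 0.647-fold in DHX34 knockdown (log2 fold change -0.63 ± 0.08, adjusted p = 0.000209). Directly compared it differed 2.85-fold between the knockdowns, at a log2 fold change of 1.51 ± 0.07 (adjusted p = 1.3e-07). The DHX34 value ran from -0.69 to -0.52 when each library in turn was left out, always past the limit.

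STC2 (ENSG00000113739, chr5:173314723-173328447), a secreted glycoprotein hormone induced by stress, had the highest fold change of the members in UPF1 knockdown. It stood at 15.7, 16.5 and 16.8 CPM in SCR, 17.7, 18.0 and 17.2 in DHX34 knockdown and 39.8, 39.8 and 39.3 in UPF1 knockdown, with UPF1 knockdown clear of the other libraries. The UPF1 change was 2.42-fold (log2 fold change 1.27 ± 0.04, adjusted p = 2.28e-09), and the DHX34 value was 0.11 ± 0.06 (adjusted p = 0.184), a sign that turned with centred log2 TPM. SESN2 (ENSG00000130766, chr1:28259518-28282491), the leucine-binding inhibitor of mTORC1, stood at 62.8, 64.5 and 67.4 CPM in SCR, 60.2, 61.7 and 60.1 in DHX34 knockdown and 101, 102 and 101 in UPF1 knockdown. It rose 1.56-fold in UPF1 knockdown (log2 fold change 0.64 ± 0.03, adjusted p = 6.86e-08) and had a DHX34 value of -0.10 ± 0.04 (adjusted p = 0.107), which turned sign on the log2 TPM scale.

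CHAC1 (ENSG00000128965, chr15:40952962-40956512), an enzyme that degrades glutathione, had the most negative value of the members in DHX34 knockdown. It stood at 9.51, 8.91 and 9.24 CPM in SCR, 4.15, 6.03 and 6.41 in DHX34 knockdown and 10.7, 12.9 and 10.8 in UPF1 knockdown, and DHX34 knockdown lay below every other library while varying more among its own 3. The DHX34 change was 0.598-fold (log2 fold change -0.74 ± 0.14, adjusted p = 0.00295). It was called in 2 of the 6 fits that left out 1 library, those without DHX34 knockdown replicate 1 or 3, and was lost in the 4 others at adjusted p values of up to 0.0196 (without SCR replicate 1). In UPF1 knockdown its value of 0.31 ± 0.08 missed the limit (adjusted p = 0.00895), whereas the direct difference passed it (log2 fold change 1.07 ± 0.14, adjusted p = 0.00024).

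TRIB3, a pseudokinase that restrains ATF4 and CHOP activity, rose in UPF1 knockdown (log2 fold change 0.20 ± 0.03, adjusted p = 0.000193) and fell in DHX34 knockdown (log2 fold change -0.29 ± 0.05, adjusted p = 0.002), the fall missing the limit without SCR replicate 1 (adjusted p = 0.00858) or 3 (adjusted p = 0.0106). PPP1R15A, the phosphatase subunit GADD34 that reverses eIF2 phosphorylation, stood within 97.7 to 110.4 CPM in all 9 libraries. Its log2 fold changes were 0.11 ± 0.03 in UPF1 knockdown and -0.02 ± 0.03 in DHX34 knockdown, neither past the limit (adjusted p = 0.0104 and 0.695), and the second turned sign on the log2 TPM scale. VLDLR, a lipoprotein receptor listed among ATF4 targets, was close to absent, at no more than 0.302 CPM in any library, and no difference was detectable at this depth.

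**Figure D3:**
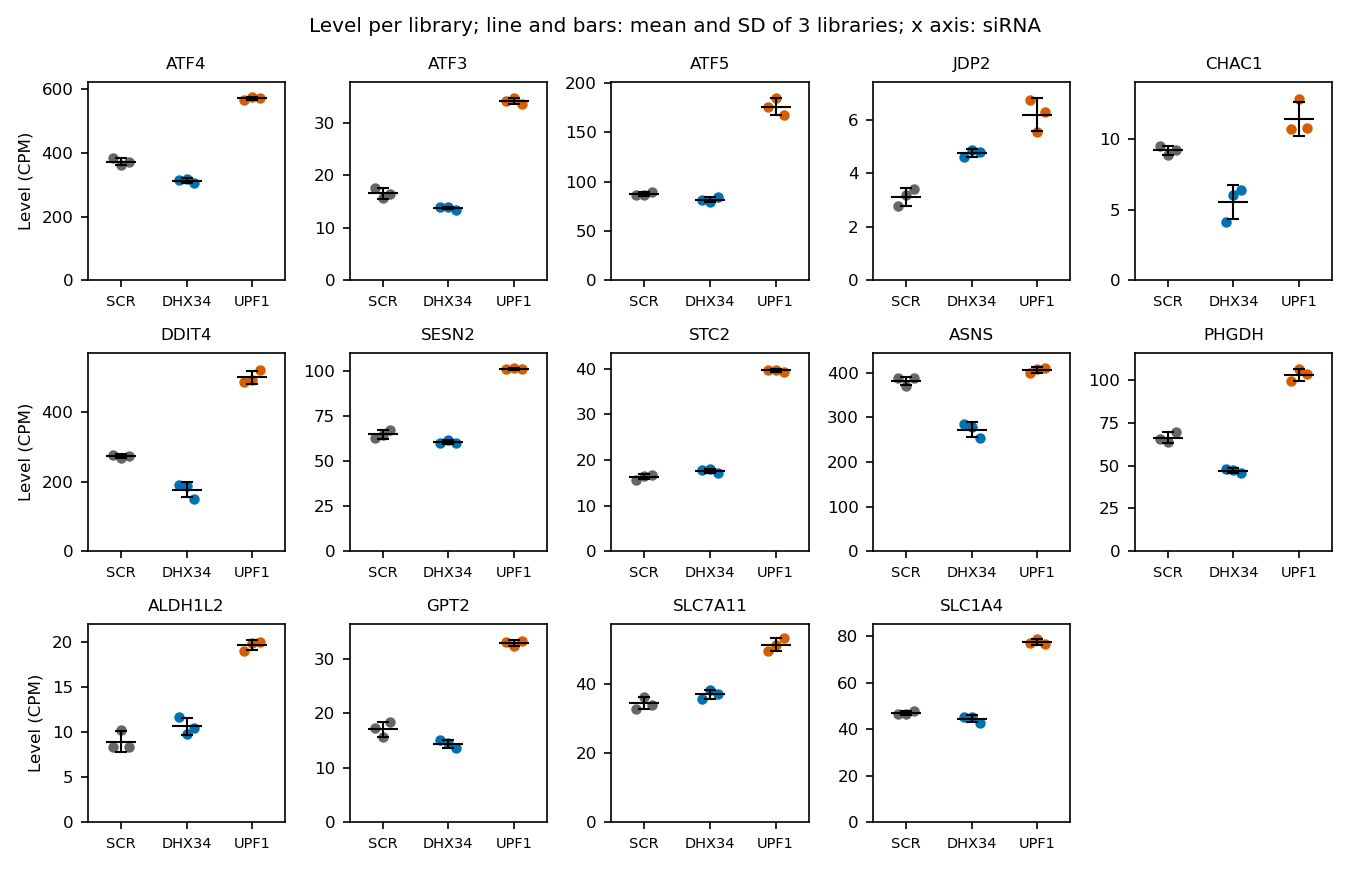
Level in CPM (y axis, from 0) of the 14 members shown by library (ATF4, ASNS and the members called with a log2 fold change of at least 0.5 and no overlap against SCR), by siRNA (x axis); points are libraries, and the line and bars are the mean and SD of 3. DDIT4 spans 151.7 to 521 CPM, and its 3 groups do not overlap.

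Of the 11 enzymes, PSAT1, PHGDH, PSPH, SHMT2, ALDH1L2, GPT2 and PCK2 rose in UPF1 knockdown, and ASNS, PSAT1, PHGDH and MTHFD2 fell in DHX34 knockdown. PHGDH (ENSG00000092621, chr1:119648411-119744218), the first enzyme of serine synthesis from glycolysis, stood at 65.3, 63.9 and 69.6 CPM in SCR, 47.9, 47.6 and 45.5 in DHX34 knockdown and 99.0, 106 and 103 in UPF1 knockdown. Its groups were separate, UPF1 knockdown above SCR and DHX34 knockdown below. The log2 fold change was 0.63 ± 0.04 in UPF1 knockdown (adjusted p = 2.61e-07), -0.49 ± 0.05 in DHX34 knockdown (adjusted p = 4.15e-05) and 1.14 ± 0.04 between the knockdowns (adjusted p = 1.25e-08). PSAT1, the transaminase of the pathway, changed by 0.30 ± 0.03 in UPF1 knockdown (adjusted p = 2.46e-05) and by -0.32 ± 0.05 in DHX34 knockdown (adjusted p = 0.00175, or 0.00656, 0.00982 and 0.00737 without SCR replicate 1, SCR replicate 3 and DHX34 knockdown replicate 1). PSPH, the phosphatase of the last step, rose in UPF1 knockdown (log2 fold change 0.39 ± 0.04, adjusted p = 7.37e-06) and had a DHX34 value of -0.17 ± 0.05 (adjusted p = 0.0303), which turned sign on the log2 TPM scale.

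ASNS (ENSG00000070669, chr7:97851677-97872542), asparagine synthetase and a standard readout of ATF4, fell in DHX34 knockdown and was not called in UPF1 knockdown. It stood at 387, 369.9 and 387 CPM in SCR, 285, 279 and 254 in DHX34 knockdown and 399, 408 and 410.1 in UPF1 knockdown. The DHX34 libraries lay well below SCR (log2 fold change -0.48 ± 0.05, adjusted p = 7.29e-05), and the value held between -0.52 and -0.43 when each library in turn was left out. In UPF1 knockdown all 3 libraries lay above SCR, but by a log2 fold change of 0.08 ± 0.03, which missed the limit (adjusted p = 0.0264). Its annotated pseudogene copy ASNSP1 rose from 2.35, 1.93 and 2.07 CPM in SCR to 14.5, 15.3 and 13.7 in UPF1 knockdown (log2 fold change 2.77 ± 0.09, adjusted p = 1.57e-09). Reads that match both can be split between gene and copy, so both levels are uncertain.

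ALDH1L2 (ENSG00000136010, chr12:105019784-105107643) and GPT2 (ENSG00000166123, chr16:46884362-46931289) were the enzymes with the highest fold changes in UPF1 knockdown. ALDH1L2, the mitochondrial 10-formyltetrahydrofolate dehydrogenase, stood at 8.34, 10.3 and 8.33 CPM in SCR, 11.7, 9.80 and 10.5 in DHX34 knockdown and 19.1, 19.97 and 20.02 in UPF1 knockdown. UPF1 knockdown was 2.19-fold above SCR (log2 fold change 1.13 ± 0.08, adjusted p = 8.18e-07), while DHX34 knockdown overlapped SCR, with a log2 fold change of 0.25 ± 0.10 (adjusted p = 0.103). NOPCHAP1 and WASHC4 overlap ALDH1L2 on the opposite strand and were at 31.6 and 40.03 CPM in SCR and 29.4 and 42.6 in UPF1 knockdown. GPT2, the mitochondrial alanine aminotransferase, stood at 17.2, 15.5 and 18.3 CPM in SCR, 15.2, 14.5 and 13.7 in DHX34 knockdown and 33.1, 32.3 and 33.2 in UPF1 knockdown. It was 1.92-fold higher in UPF1 knockdown (log2 fold change 0.94 ± 0.06, adjusted p = 1.99e-07), and its DHX34 value of -0.24 ± 0.07 missed the limit (adjusted p = 0.0363) with all 3 libraries below SCR.

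Values were smaller in the other one-carbon and sulfur amino acid genes. SHMT2, the mitochondrial enzyme that splits serine into glycine and a one-carbon unit, rose in UPF1 knockdown (log2 fold change 0.21 ± 0.03, adjusted p = 0.000125). MTHFD2, the next mitochondrial folate enzyme, had a UPF1 value of 0.05 ± 0.03 (adjusted p = 0.211), which turned sign with length-scaled counts and with centred log2 TPM, and fell in DHX34 knockdown (log2 fold change -0.21 ± 0.04, adjusted p = 0.00407), a call made in 1 of the 6 fits that left out 1 library, the one without DHX34 knockdown replicate 3. PCK2, the mitochondrial phosphoenolpyruvate carboxykinase, rose in UPF1 knockdown (log2 fold change 0.32 ± 0.03, adjusted p = 1.62e-05). CTH and CBS, the enzymes of cysteine synthesis from homocysteine, were not called against SCR, although CTH lay below SCR in every DHX34 library (log2 fold change -0.37 ± 0.08, adjusted p = 0.00797) and above it in every UPF1 library (log2 fold change 0.26 ± 0.06, adjusted p = 0.00692). The direct comparison called CTH (log2 fold change 0.64 ± 0.06, adjusted p = 1.98e-05). The level of CBS is uncertain, since the near-identical annotated copy CBSL had no matched transcript, and its UPF1 value was 0.08 ± 0.03 (adjusted p = 0.0716).

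Among the 8 transport genes, 7 rose in UPF1 knockdown, all but SLC1A5, and SLC7A5 and SLC3A2 fell in DHX34 knockdown. SLC1A4 (ENSG00000115902, chr2:64988477-65023865), a carrier of alanine, serine and cysteine, stood at 46.5, 46.3 and 47.8 CPM in SCR, 45.3, 45.2 and 42.8 in DHX34 knockdown and 76.8, 78.7 and 76.6 in UPF1 knockdown. UPF1 knockdown was separate from the rest (log2 fold change 0.72 ± 0.03, adjusted p = 2.44e-08), and DHX34 knockdown lay just below SCR (log2 fold change -0.08 ± 0.04, adjusted p = 0.246), a sign that turned on the log2 TPM scale. SLC7A11 (ENSG00000151012, chr4:138164097-138242349), the cystine and glutamate exchanger, stood at 33.0, 36.4 and 34.1 CPM in SCR, 35.8, 38.4 and 37.3 in DHX34 knockdown and 49.5, 51.5 and 53.3 in UPF1 knockdown. It rose 1.49-fold in UPF1 knockdown (log2 fold change 0.57 ± 0.05, adjusted p = 2.31e-06), and DHX34 knockdown overlapped SCR (log2 fold change 0.11 ± 0.05, adjusted p = 0.155), with a sign that turned when the trend on gene length was removed.

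SLC7A5 and SLC3A2, the light and heavy chains of the leucine carrier LAT1, moved in opposite directions in the knockdowns. SLC7A5 averaged 547 ± 13.5 CPM (SD, n = 3) in SCR, 424 ± 9.72 in DHX34 knockdown and 679.9 ± 6.51 in UPF1 knockdown. Its log2 fold changes were -0.37 ± 0.04 (adjusted p = 8.36e-05) and 0.31 ± 0.03 (adjusted p = 2.86e-06), and those of SLC3A2 were -0.20 ± 0.03 (adjusted p = 0.00144) and 0.29 ± 0.03 (adjusted p = 3.99e-06). The SLC3A2 fall was called in 2 of the 6 fits that left out 1 library, without SCR replicate 2 or without DHX34 knockdown replicate 3. The copy SLC7A5P1 rose from 2.09 to 6.09 CPM in UPF1 knockdown (log2 fold change 1.53 ± 0.16, adjusted p = 1.39e-05). SLC7A1, the cationic amino acid carrier, rose in UPF1 knockdown (log2 fold change 0.26 ± 0.04, adjusted p = 0.000494), as did SLC38A2, a sodium-coupled neutral amino acid carrier (log2 fold change 0.23 ± 0.04, adjusted p = 0.00072), and XPOT, the tRNA exporter (log2 fold change 0.12 ± 0.03, adjusted p = 0.00206). SLC38A2 missed the limit without SCR replicate 1 or 2 (adjusted p = 0.00563 and 0.00671) and without UPF1 knockdown replicate 2 or 3 (adjusted p = 0.00546 and 0.00504), and XPOT did so in every such fit but the one without SCR replicate 3. With the trend on gene length removed, SLC7A1 and XPOT missed the limit (adjusted p = 0.0191 and 0.25), as they did with centred log2 TPM (adjusted p = 0.0443 and 0.0697). SLC1A5, a glutamine carrier, stayed between 740.4 and 850.1 CPM in all libraries, with log2 fold changes of 0.03 ± 0.03 and -0.06 ± 0.04 in UPF1 and DHX34 knockdown (adjusted p = 0.422 and 0.33), of which the first turned sign with length-scaled counts, with centred log2 TPM and with the trend on gene length removed, and the second on the log2 TPM scale.

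At the isoform level, 12 of the 15 member transcripts called higher in UPF1 knockdown were the leading isoform of their gene in SCR, and 14 were protein coding. How often the called transcripts of all genes were leading or protein coding was not computed. Calls depend on counts, and the minor isoform ATF5-205 had only 46.4 to 120 in the SCR libraries. Its log2 fold change of 1.79 ± 0.38 (SE) in UPF1 knockdown missed the limit (adjusted p = 0.0342). Of the 14, GPT2-203 and SHMT2-220 have no annotated bases after their coding sequence. The deposited tables held 279 transcripts of the members, of which 36, in 14 members, are annotated as NMD substrates and 53 as retained introns. One isoform took at least 90% of the TPM in SCR in 19 members, and the leading isoform was protein coding in 33 of the 34. In UPF1 knockdown 15 of 165 member transcripts tested were called higher and none lower, where 0.970% of 62497 transcripts were called higher and 1.62% lower. These 15 were ALDH1L2-201, ATF3-202, ATF4-202, ATF5-201, DDIT4-201, GPT2-201, GPT2-203, SESN2-201, SHMT2-220, SLC1A4-201, SLC38A2-208, SLC3A2-201, SLC7A11-201, SLC7A5-201 and STC2-201. ATF4-202, for example, went from 295 ± 4.36 TPM (SD, n = 3) to 525 ± 3.92 in UPF1 knockdown, and its share of the gene's TPM was 98.5 ± 0.316% and 99.0 ± 0.169%. Not every member followed that pattern. The coding PHGDH-208 was at 22.1 TPM in SCR and 33.6 in UPF1 knockdown, and the retained-intron PHGDH-207 at 13.6 and 30.7, neither past the limit (adjusted p = 0.267 and 0.108). SHMT2-213, which has no defined coding sequence, was at 21.8 and 54.6 TPM (adjusted p = 0.034), beside 26.1 and 44.3 for the called SHMT2-220. In DHX34 knockdown SHMT2-213 was at 42.5 TPM (adjusted p = 0.162). Its share of the gene's TPM was 9.10% in SCR, 16.6% in DHX34 knockdown and 16.4% in UPF1 knockdown, neither knockdown overlapping SCR. Leaving out 1 library left between 2 (without UPF1 knockdown replicate 1) and 9 (without SCR replicate 2) of the 15 calls, and 3 without SCR replicate 1, UPF1 knockdown replicate 2 or UPF1 knockdown replicate 3 and 5 without SCR replicate 3. Calls over all transcripts fell too, from 1620 with all libraries to 37 without UPF1 knockdown replicate 1 and 569 without SCR replicate 2. In DHX34 knockdown edgeR called none of 151 member transcripts, where 0.0348% of 60416 were called higher and 0.0116% lower. Without DHX34 knockdown replicate 3 the fit called 0 transcripts of any gene, so it could show nothing about the members. An unadjusted p under 0.05 was reached by 28 (18.5%), where 15.2% of all transcripts reached it, and 23 (15.2%) did so with a lower level, where 7.79% of all transcripts did. DESeq2 called 15, where it called 4.53% of all transcripts.

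GPT2 showed a gain of a transcript. GPT2-203 is annotated as a coding model of 554 bases and 5 exons (chr16:46884695-46909874, GRCh38), within the span of the 3984-base GPT2-201. It has no annotated bases after its coding sequence, so whether it is an NMD substrate cannot be read from the model. It had 0 expected counts in all 6 SCR and DHX34 knockdown libraries and 72.1, 99.8 and 83.4 in the UPF1 knockdown libraries. GPT2-203 passed the filter on low counts only through the UPF1 knockdown libraries, where it is high, and was not tested in DHX34 knockdown. Its place among the 15 calls and its share in UPF1 knockdown are therefore not independent of that filter. A count of 0 allows up to 3 counts over the SCR group, against which the UPF1 level of GPT2-203 was at least 75.6-fold higher. It then took 26.0 ± 2.87% of the TPM of GPT2, and GPT2-201 took 98.0 ± 1.42% of it in SCR and 71.1 ± 2.59% in UPF1 knockdown, although its own level rose from 4.31 to 9.12 TPM. Reads that match both models were divided between them by estimation, so a value of exactly 0 is an estimate.

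Transcripts annotated as NMD substrates carried a larger share in UPF1 knockdown, without overlap with SCR, in 3 of the 8 members where they could be examined. The 3 were SLC38A2, SHMT2 and PCK2. The same held for 33.3% of 3523 genes, so the members did not stand out from genes at large. SLC38A2-208, with 11 exon junctions after its stop codon, took 4.73, 3.41 and 4.50% of the gene's TPM in SCR, 3.88, 4.37 and 1.74% in DHX34 knockdown and 7.93, 8.71 and 8.84% in UPF1 knockdown. It was the one NMD-annotated transcript among the 15, at a log2 fold change of 1.18 ± 0.14 (adjusted p = 0.00476). The summed NMD-annotated share of SHMT2 was 9.90 ± 1.38% in SCR and 12.8 ± 1.38% in UPF1 knockdown, and that of PCK2 was 1.59 ± 0.704% and 4.28 ± 0.965%. Each difference had an exact two-sided permutation p of 0.1, the smallest that 3 against 3 libraries allow. In DHX34 knockdown 1 member, MTHFD2, had the higher share without overlap (48.5 ± 1.01% to 50.003 ± 1.10%), where 8.26% of genes did. Without replicate 3 the libraries lay above SCR in MTHFD2 (mean 50.2%) and XPOT and below it in PSPH and SHMT2. Groups with fewer libraries separate more readily, and the share of all genes was not computed for this setting. With replicate 3 included, XPOT, PSPH and SHMT2 overlapped SCR. MTHFD2 was also the member whose leading isoform, MTHFD2-205, carries the NMD annotation, with 5 junctions after the stop, and that isoform's level in UPF1 knockdown differed from SCR by a log2 fold change of -0.03 ± 0.04 (adjusted p = 0.762). JDP2-206 took 25.1, 35.5 and 31.1% of JDP2 TPM in SCR and 9.90, 10.7 and 21.5% in DHX34 knockdown, without overlap (exact two-sided permutation p = 0.1), but from as few as 12.7 counts in a library, with a mean of 14.04% in DHX34 knockdown and 10.3% without its replicate 3.

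**Figure D4:**
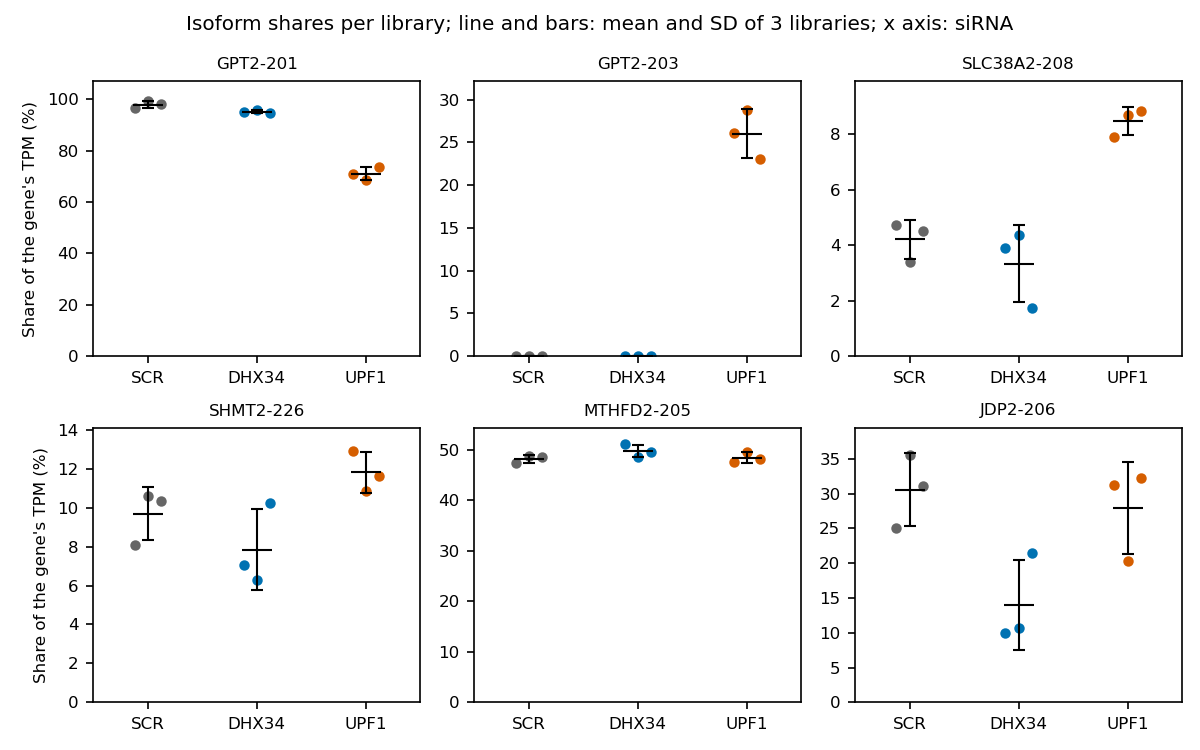
Share of each gene's TPM (y axis, percent, from 0) taken by 6 isoforms, by siRNA (x axis); points are libraries, and the line and bars are the mean and SD of 3. GPT2-203 is at 0 in SCR and DHX34 knockdown and at 26.0% in UPF1 knockdown, and SLC38A2-208 is higher in UPF1 knockdown than in all other libraries.

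Other genes of the pathway, in lists that hold none of the members, gave mixed counts. Across all genes tested, 12.4% were called higher and 12.9% lower in UPF1 knockdown. In DHX34 knockdown the shares were 5.54% and 4.86%. Of 17 eIF2 kinases and pathway regulators, 2 rose and 5 fell in UPF1 knockdown, and 1 rose and 1 fell in DHX34 knockdown. EIF2AK3, the eIF2 kinase PERK, rose in UPF1 knockdown (log2 fold change 0.52 ± 0.10, adjusted p = 0.00121), while of the 8 subunits of eIF2 and of its exchange factor eIF2B, EIF2S1 (log2 fold change -0.22 ± 0.03, adjusted p = 4.22e-05), EIF2B1, EIF2B3 (log2 fold change -0.23 ± 0.03, adjusted p = 7.15e-05) and EIF2B4 fell, and EIF2S2, EIF2S3, EIF2B2 and EIF2B5 were not called. GCN1, the activator of the amino acid sensing kinase GCN2, rose in DHX34 knockdown (log2 fold change 0.33 ± 0.04, adjusted p = 0.000461). Of 20 cytosolic aminoacyl-tRNA synthetases, 3 rose and 6 fell in UPF1 knockdown and 2 fell in DHX34 knockdown. WARS1, for tryptophan, rose in UPF1 knockdown (log2 fold change 0.34 ± 0.03, adjusted p = 2.58e-06), and VARS1, for valine, fell (log2 fold change -0.28 ± 0.02, adjusted p = 2.8e-06). KARS1, for lysine, and YARS1, for tyrosine, fell in DHX34 knockdown, each with a log2 fold change of -0.23. Of 20 other genes of amino acid and one-carbon metabolism, 4 rose and 6 fell in UPF1 knockdown and 3 fell in DHX34 knockdown. The amino acid carriers SLC36A1 and SLC7A6 had the largest rises of that list in UPF1 knockdown, at 0.30 ± 0.05 and 0.30 ± 0.05, and GLUL, glutamine synthetase, the largest fall in DHX34 knockdown (log2 fold change -0.30 ± 0.05, adjusted p = 0.0015). Of 14 ER chaperones and genes of the IRE1 and ATF6 branches, 5 rose and 2 fell in UPF1 knockdown and 2 rose in DHX34 knockdown, EDEM1 and SEL1L, which act in ER-associated degradation. EDEM1 also had the largest rise of its list in UPF1 knockdown (log2 fold change 0.59 ± 0.05, adjusted p = 1.62e-06). The median log2 fold changes of these lists in UPF1 knockdown ran from -0.06 to 0.10, against 0.32 for the members. In DHX34 knockdown they ran from -0.10 (synthetases) to 0.06 (ER genes), against -0.16 for the members. There 12 of the 20 synthetases lay below SCR without overlap, beside 22 of the 34 members and 20.3% of all genes. Without DHX34 knockdown replicate 3 the counts of the DHX34 comparison were 2 higher and 3 lower for the synthetases and 3 higher and 0 lower for the ER genes, and those of the other 2 lists did not change. That fit called 1785 of all genes, against 1768 with replicate 3. The 6 erythroid markers, which check the identity of the cells, gave 3 that fell and 1 that rose in UPF1 knockdown and 2 that fell in DHX34 knockdown, with HBE1, the embryonic globin, at a log2 fold change of -1.11 ± 0.05 and -0.37 ± 0.06, the latter -0.31 without DHX34 knockdown replicate 3. Of 7 markers of lymphoid, epithelial and fibroblast cells, MS4A1 and KRT5 were at 0 in every library, and the summed level of the 7 was 110.1 to 112 CPM in SCR, 102 to 105 in DHX34 knockdown and 92.1 to 96.6 in UPF1 knockdown, nearly all of it EPCAM. COL1A1 was the one that rose in DHX34 knockdown, from 0.701 to 4.82 CPM (log2 fold change 2.78 ± 0.16, adjusted p = 2.26e-06), or by a log2 fold change of 2.83 without replicate 3, when COL1A2 was also called lower. The part of these shifts in the members' changes was not tested.

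**Figure D5:**
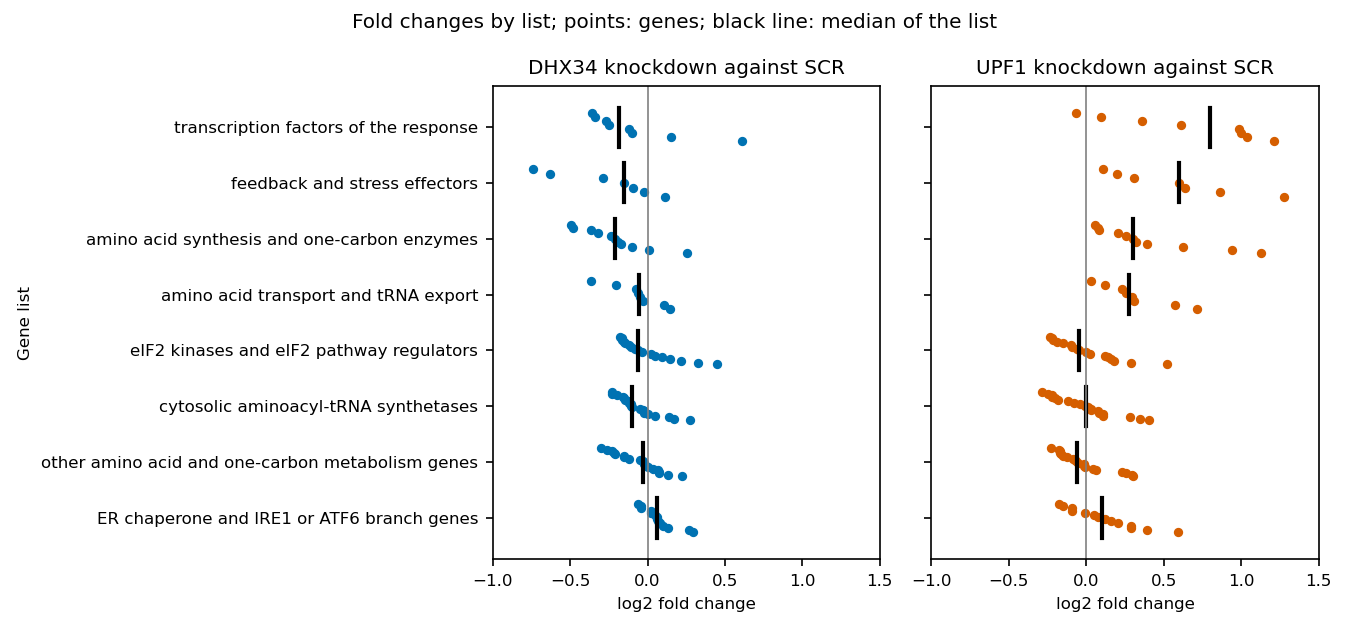
Log2 fold change against SCR (x axis) of every gene in the 4 groups of members and in 4 further lists (y axis), in DHX34 knockdown and in UPF1 knockdown; points are genes and the black line is the median of the list. The medians of the 4 member groups lie between 0.28 and 0.80 in UPF1 knockdown, and those of the other lists between -0.06 and 0.10. In DHX34 knockdown the member groups lie between -0.21 and -0.05 and the other lists between -0.10 and 0.06.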

How the data were processed

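The authors transfected K562 cells with siRNA, sequenced poly(A)-selected RNA and quantified transcripts with salmon against Ensembl cDNA on GRCh38, with correction for GC content. For each of the 9 libraries they deposited, per transcript, expected counts, TPM values and an effective length, which is a score of usable length in bases. The aim of their own tests was differential expression and splicing, and those deposited result tables were not used here.

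Transcripts were assigned to genes of GENCODE release 44 (97.9% of transcripts matched, with 98.1% of expected counts in every library), and expected counts were summed per gene and rounded. Genes and transcripts were tested in each pair of groups with edgeR 4.0.16 in R 4.3.3 (quasi-likelihood test, TMM scaling, filterByExpr with a minimum count of 10), and p values were adjusted by Benjamini-Hochberg over all features tested, with calls at an adjusted p of at most 0.005. Standard errors were taken from the fold change and the F statistic. The scripts were tested on simulated data. Levels are TMM-scaled CPM. Alternatives used DESeq2 1.42.0, limma 3.58.1 on log2 (TPM + 0.5), length-scaled counts and other settings. Isoform shares were compared by exact permutation in SciPy 1.17.1. Depth covers counting error only.

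Replicate numbers were checked for pairing. Correlations of the deviations of same-numbered libraries ran from -0.0816 to 0.081 and none was above 0.1, so the numbers were not taken to pair the libraries. A member was given library by library if it was ATF4 or ASNS, or was called without overlap at an absolute log2 fold change of at least 0.5 against SCR. Members and lists were chosen with earlier results of these data known.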

Additional observations from a re-analysis of the deposited data

How the results depend on the processing

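Members called in DHX34 knockdown against SCR numbered 13 and ranged from 5 to 12 when 1 library was left out. The number was 7 with length-scaled counts, 7 with a replicate block and 3 with limma on log2 TPM, against 1 and 12 in the 2 directions as reported. Over all genes the number was 1768, and 781 to 1785 without 1 library. It was 741 with length-scaled counts, 1007 with the block and 879 with limma. The cause was not tested. On the log2 TPM scale the median of all genes moved to 0.13 in DHX34 knockdown and 0.17 in UPF1 knockdown, and XPOT, at -0.03 by edgeR in DHX34 knockdown, was called higher at 0.24 (adjusted p = 0.00424 by limma). With each library centred on its median, an alternative chosen after seeing the data, the members called were 9 in DHX34 knockdown, 18 in UPF1 knockdown and 21 between the knockdowns. All genes called in that setting numbered 631, 2881 and 1167. Members called numbered 23 in UPF1 knockdown (21 to 25 without 1 library, 24 with the block) and 27 between the knockdowns (25 to 28, 25 with the block). All genes called numbered 4345 in UPF1 knockdown (3187 to 3733 without 1 library, 4345 with the block). Between the knockdowns they numbered 3026 (1915 to 3865, 2320 with the block). The blocked fit used a number that does not pair the libraries.

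Member transcripts called in DHX34 knockdown numbered 0 by edgeR, 8 at an adjusted p of 0.05, 15 with DESeq2 and 1 with no low count filter, which are 5.3%, 9.93% and 0.424% of those tested, where the same settings called 2.62%, 4.53% and 0.0959% of all transcripts. In UPF1 knockdown they numbered 15, and 36, 42 and 0 at an adjusted p of 0.05, with DESeq2 and with the replicate block, and 2 to 9 without 1 library. At an adjusted p of 0.05 and with DESeq2 these are 21.8% and 25.5% of those tested, where 10.3% and 13.9% of all transcripts were called, and the block called 0 of all transcripts. The fits without 1 library called 37 to 569 of all transcripts, where the fit with all libraries called 1620. The number of members with a higher NMD-annotated share in UPF1 knockdown was 3, and 3 to 4 without 1 library. With all libraries 33.3% of all genes examined had such a higher share. With 3 libraries a group, isoform shares can reach no exact p below 0.1, and VLDLR and NUPR1 are limited by depth.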
